A study of Mus musculus with 2 samples.

Results

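The peroxisome proliferator-activated receptors (PPAR) and the enzymes of mitochondrial fatty acid oxidation were compared between WT and Hif-1α-deficient adipose tissue macrophages (ATM). The set held 10 genes of the 20330 gene identifiers in the expression table, taken by a list of names that used no measured value as a criterion but was drawn up with earlier results of these data known. They were the receptor genes Pparg, Ppard and Rxra, the carnitine palmitoyltransferase genes Cpt1a and Cpt2, the acyl-CoA dehydrogenase genes Acadm, Acadl and Acadvl, and the trifunctional protein genes Hadha and Hadhb. All 10 were matched by identifier and all 10 were measured above 1 FPKM (fragments per kilobase, a level scaled to transcript length and to library size) in both libraries.

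The data were 2 RNA sequencing libraries of C57BL/6 macrophages sorted with F4/80 and CD11b antibodies from visceral fat after 12 weeks of high-fat diet. The KO library came from hMRP8cre+;Hif-1αfl/fl;ApoE-/- mice, and the WT library from animals that were hMRP8cre- and otherwise had the same labelled floxed Hif-1α and ApoE-/- alleles. These alleles and the diet were therefore shared by label, and WT refers only to the lack of Cre. Apoe measured 94.3 FPKM in WT and 117 in KO. There was no library with intact ApoE to compare with, so a loss of its transcript was not tested. A value over the whole gene does not show which allele it came from. Cre was driven by the human MRP8 (S100A8) promoter, which is active in myeloid cells. The age at harvest and the number of animals behind a library are not given in the labels. With 1 library per genotype no difference had a replicate check, so no p-value is given.

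The depth was estimated at 5808990 fragments in the WT and 7410210 in the KO library, and FPKM summed to 585823 and 568329. Hif1a (ENSMUSG00000021109), the targeted gene, measured 30.4 FPKM in WT against 20.97 in KO, a value over the whole gene that cannot show the loss of an exon. Of 9 macrophage marker genes with a value, all 9 were above 1 FPKM in both libraries and none differed 3-fold, beside 11.5% of all genes at that level, with Lyz2 at 3936 and 4080 FPKM and C1qa at 1849 and 1648 FPKM. The widest differences among them, singled out after their values were seen, were in Mertk, at 38.01 and 88.1 FPKM, and Fcgr1, at 49.3 and 21.9 FPKM.

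PPARγ and PPARδ are ligand-activated nuclear receptors for fatty acids and their derivatives, and they bind DNA together with the retinoid X receptor, of which RXRα is a form. PPARγ is known as the regulator of fat cell differentiation and, in macrophages, of lipid uptake and alternative activation, whereas PPARδ is more broadly expressed and is known for control of oxidative genes. Long-chain fatty acids enter mitochondria as acylcarnitines, made by CPT1 at the outer membrane and turned back to acyl-CoA by CPT2 at the inner membrane. Acyl-CoA dehydrogenases of different chain-length preference then start each round of β-oxidation, and the trifunctional protein completes the round for long chains.

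The clearest difference among the 10 genes was in the receptors. In WT, Pparg was 2.37 times as high as Ppard, whereas in KO Ppard was 3.86 times as high as Pparg. Among the enzymes, Acadm, which encodes the medium-chain acyl-CoA dehydrogenase, was lower in KO, at 0.342 of its WT value, while Acadl and Acadvl, for longer chains, had nearly equal values in both libraries. Over the 7 enzyme genes together the summed level was 143 FPKM in WT against 137 in KO. Differences are given as log2(FPKM + 1), KO minus WT, unless a ratio is named.

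Pparg (ENSMUSG00000000440; GRCm38 chromosome 6, 115360951 to 115490399, plus strand) measured 36.4 FPKM in WT against 7.78 in KO. The difference was -2.09, and the WT value was 4.68 times the KO value. These values rested on an estimated 449 WT and 122 KO fragments, which puts the 95% counting interval of the KO to WT ratio at 0.173 to 0.261. These fragments were amplified over 18 PCR cycles and are not independent molecules, so this and all other intervals cover counting error only. Pparg lay at percentile 80.3 of genes listed above 0 in WT and at percentile 44.7 in KO.

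Ppard (ENSMUSG00000002250; chromosome 17, 28232700 to 28301474, plus strand) was instead higher in KO, with 15.4 FPKM in WT against 30.04 in KO. The ratio was 1.95, with a counting interval of 1.70 to 2.24, and the difference was 0.92. Rxra (ENSMUSG00000015846; chromosome 2, 27676440 to 27762957, plus strand) encodes a partner of both receptors. It measured 27.7 FPKM in WT against 18.6 in KO, a difference of -0.54. Pparg was thus above Rxra in WT, at 1.32 times its level, and below it in KO, at 0.417 times. The 3 receptor genes summed to 79.4 FPKM in WT against 56.5 in KO.

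In sorted bulk RNA, fewer cells that carry a transcript and less transcript per cell cannot be told apart. Adipocytes are rich in PPARγ, and of 8 adipocyte markers Adipoq, Plin1, Retn, Adrb3 and Cidea were listed at 0 in both libraries. The other adipocyte markers were Plin4, at 2.14 FPKM in WT and listed at 0 in KO, and Cfd and Lep, listed at 0 in WT but at 7.11 and 1.60 FPKM in KO. The adipocyte list summed to 2.14 FPKM in WT against 8.70 in KO. The part of adipocyte RNA in the Pparg difference was not tested.

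Promoter stretches of Pparg and Ppard are shown because the values of these receptors differed in opposite directions. FPKM values here sum over all starts of a gene. RefSeq gave 13 windows of 300 bases for the 10 genes, of which Pparg had 3 and Rxra 2. The stretches printed here and further on lie outside every exon of GENCODE M21 and are written 5′ to 3′ on the gene's strand (build GRCm38.p6). Capitals mark AGGTCA, the core that nuclear receptors bind, or ACGTG, the core that HIF binds, on either strand.

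Pparg, second window, chr6:115362099-115362291 plus strand: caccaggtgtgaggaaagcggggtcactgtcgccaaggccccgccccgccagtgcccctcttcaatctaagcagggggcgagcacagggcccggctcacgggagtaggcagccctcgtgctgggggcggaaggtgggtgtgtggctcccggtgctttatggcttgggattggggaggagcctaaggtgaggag
Ppard, chr17:28232504-28232699 plus strand: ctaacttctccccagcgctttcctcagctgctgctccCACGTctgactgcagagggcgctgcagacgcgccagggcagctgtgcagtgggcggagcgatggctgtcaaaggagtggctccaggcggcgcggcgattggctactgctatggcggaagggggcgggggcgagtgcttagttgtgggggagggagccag

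The printed Pparg stretch held neither core, but its full window and the first Pparg window each held AGGTCA in a single place within annotated exons, which are not printed. The Ppard stretch held a single HIF core, in capitals and read from the opposite strand, and no nuclear receptor core. The HIF core was found in 19.6% of all 32851 RefSeq windows, so a match of this kind is frequent, and it is a description of the letters and not a bound site.

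**Figure D1:**
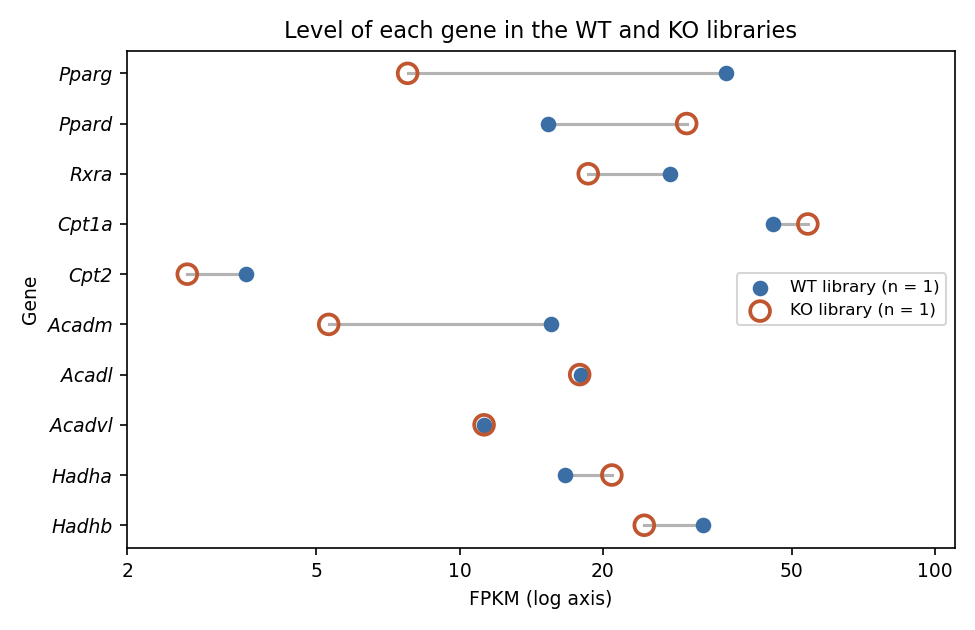
FPKM of the 10 genes (log axis) in the WT library (filled) and the KO library (open ring), 1 library each, joined by a line per gene. Pparg and Acadm have the longest lines to the left, from 36.4 to 7.78 and from 15.5 to 5.31 FPKM, and Ppard the longest to the right, from 15.4 to 30.04 FPKM.

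The carnitine shuttle enzymes were then compared. Cpt1a (ENSMUSG00000024900; chromosome 19, 3322334 to 3385733, plus strand), which encodes the malonyl-CoA-sensitive entry step, was the highest of the 10 genes in both libraries, at 45.7 FPKM in WT against 54.01 in KO. Its ratio was 1.18, with a counting interval of 1.10 to 1.27. Cpt2 (ENSMUSG00000028607; chromosome 4, 107903981 to 107923610, minus strand) was the lowest in both, at 3.56 FPKM in WT against 2.68 in KO. It rested on an estimated 49.1 and 47.04 fragments, and its interval of 0.493 to 1.15 held equal levels. Cpt1a was 12.8 times as high as Cpt2 in WT and 20.2 times in KO.

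The 3 acyl-CoA dehydrogenase genes, which differ in the chain length their enzymes prefer, differed in how their values compared between the libraries. Acadm (ENSMUSG00000062908; chromosome 3, 153922357 to 153944632, minus strand) measured 15.5 FPKM in WT against 5.31 in KO. The difference was -1.39, and the counting interval of the ratio was 0.261 to 0.448 on an estimated 185 and 80.5 fragments. The long-chain gene Acadl (ENSMUSG00000026003; chromosome 1, 66830839 to 66863277, minus strand) measured 17.98 FPKM in WT against 17.9 in KO. The very long-chain gene Acadvl (ENSMUSG00000018574; chromosome 11, 70010183 to 70015411, minus strand) measured 11.2 FPKM in WT against 11.3 in KO. The intervals of their ratios were 0.824 to 1.20 for Acadl and 0.798 to 1.25 for Acadvl, so differences within these bounds were not detectable at this depth. The sign of these differences turned with the scaling of KO. Acadl, at -0.01 as deposited, was at 0.01 with equal upper quartiles and 0.03 with equal sums, and Acadvl, at 0.00, was at -0.02 with a median ratio of 1.

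Within a library these values give the share of each gene among these 3, not of whole chain-length classes. Other acyl-CoA dehydrogenase genes were left out of the sum. Among them the short-chain gene Acads had the higher value in KO, with 7.49 FPKM in WT against 14.1, and Acad9 the lower, with 3.03 against 2.56. Acadm made up 34.7% of the summed FPKM of the 3 genes in WT and 15.4% in KO. Acadl was 1.16 times as high as Acadm in WT and 3.37 times in KO, whereas Acadl was at 1.60 times Acadvl in WT and 1.59 times in KO.

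The promoter stretches of the 3 genes are printed because their levels differed in this way, with the same capitals as above.

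Acadm, chr3:153944633-153944893 minus strand: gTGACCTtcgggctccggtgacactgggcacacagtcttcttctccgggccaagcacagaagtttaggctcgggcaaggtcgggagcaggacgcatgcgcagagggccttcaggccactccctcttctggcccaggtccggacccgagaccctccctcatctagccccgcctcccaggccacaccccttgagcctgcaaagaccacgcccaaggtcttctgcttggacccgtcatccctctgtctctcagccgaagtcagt
Acadl, chr1:66863278-66863559 minus strand: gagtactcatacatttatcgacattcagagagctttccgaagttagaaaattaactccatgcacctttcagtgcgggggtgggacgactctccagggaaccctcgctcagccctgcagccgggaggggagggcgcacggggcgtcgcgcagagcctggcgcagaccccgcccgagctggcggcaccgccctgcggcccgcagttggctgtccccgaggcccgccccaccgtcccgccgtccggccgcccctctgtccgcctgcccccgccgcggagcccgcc
Acadvl, chr11:70015412-70015678 minus strand: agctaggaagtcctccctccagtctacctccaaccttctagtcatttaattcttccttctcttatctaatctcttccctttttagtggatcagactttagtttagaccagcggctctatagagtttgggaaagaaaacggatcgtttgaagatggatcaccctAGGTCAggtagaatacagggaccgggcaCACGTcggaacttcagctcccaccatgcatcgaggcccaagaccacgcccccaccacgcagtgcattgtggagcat

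Acadm and Acadvl each held AGGTCA in a single place, and Acadvl also held ACGTG in a single place. Acadl held neither, and its stretch was 69.9% G and C, against 63.6% for Acadm and 49.4% for Acadvl. AGGTCA was found in 16.3% of all windows and in 6 of the 13 windows here. These came from 5 of the 10 genes, Acadm, Acadvl, Cpt1a, Pparg and Rxra. The complete PPAR element, DR1, searched as AGGTCA followed after any 1 base by a further copy of it on either strand, was in 0 of the 13 windows and in 0.0396% of all windows. This says only that these letters are not in these windows. Acadm, lower in KO, and Acadvl, at nearly equal values, thus both held the AGGTCA core.

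Hadha and Hadhb encode the α and β subunits of the trifunctional protein, the α subunit with hydratase and hydroxyacyl-CoA dehydrogenase activity and the β subunit with thiolase activity. Hadha (ENSMUSG00000025745; chromosome 5, 30118304 to 30155162, minus strand) measured 16.7 FPKM in WT against 20.9 in KO, a ratio of 1.25 with a counting interval of 1.10 to 1.43. Hadhb (ENSMUSG00000059447; chromosome 5, 30155248 to 30184593, plus strand) measured 32.5 FPKM in WT against 24.5 in KO, a ratio of 0.754 with an interval of 0.652 to 0.871. Hadhb was above Hadha in both libraries, at 1.95 times its level in WT and 1.17 times in KO. The sum of both was 49.1 FPKM in WT against 45.4 in KO.

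These 2 genes lie head to head and their annotated starts are separated by 85 bases. The stretch is printed because both genes share it while their values differed in opposite directions, and its capitals mark GGGCGG, the GC box, on either strand.

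Hadha and Hadhb, chr5:30155163-30155247 plus strand: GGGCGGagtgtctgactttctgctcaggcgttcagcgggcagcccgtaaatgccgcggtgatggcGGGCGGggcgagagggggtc

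GGGCGG was in 9 of the 13 windows, from 8 of the 10 genes, and in 35.7% of all windows. The Hadha and Hadhb windows themselves share 228 of their 300 bases.

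FPKM is scaled to transcript length, so levels can be set side by side between genes. In the order of FPKM levels, WT ran Cpt1a, Pparg, Hadhb, Rxra, Acadl, Hadha, Acadm, Ppard, Acadvl and Cpt2, and KO ran Cpt1a, Ppard, Hadhb, Hadha, Rxra, Acadl, Acadvl, Pparg, Acadm and Cpt2. Neighbours in this order were not always apart. The counting intervals of 5 of the 9 neighbouring pairs overlapped in WT, namely Pparg and Hadhb, Hadhb and Rxra, and the run from Acadl over Hadha and Acadm to Ppard. In KO 4 of 9 overlapped, in the run from Hadhb over Hadha and Rxra to Acadl and between Pparg and Acadm. Pparg was at rank 2 in WT and rank 8 in KO, Ppard at rank 8 and rank 2, and Cpt1a and Cpt2 stood at the ends in both.

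**Figure D2:**
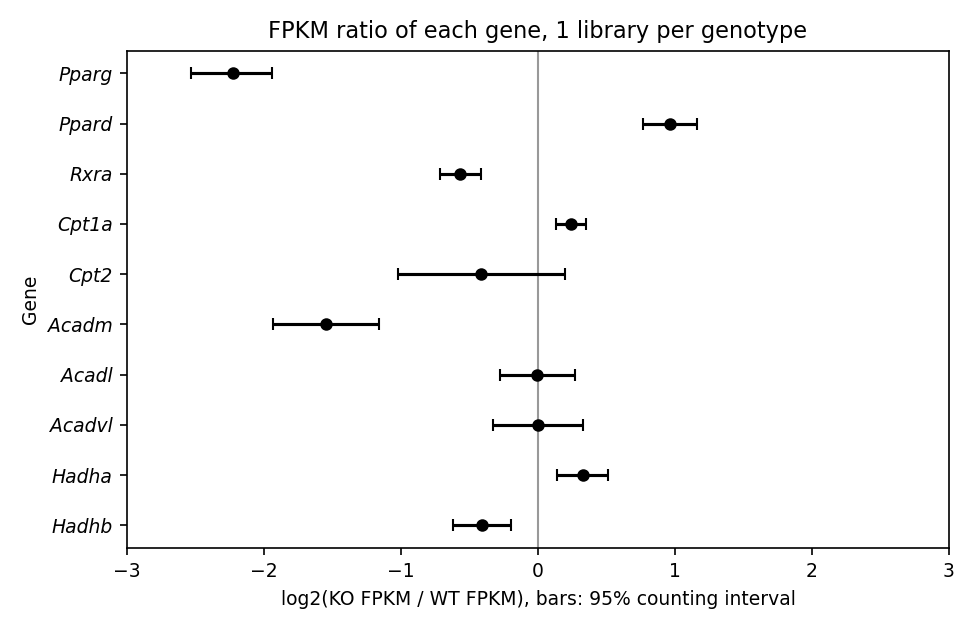
The log2 of the KO to WT FPKM ratio of each gene, with bars for the 95% counting interval from estimated fragments (Clopper-Pearson). The bars of 3 genes, Cpt2, Acadl and Acadvl, hold 0, and those of the other 7 do not, but the bars do not cover differences between animals or between library preparations.

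A 3-fold difference was the threshold used by the study for its gene lists. Of the 10 genes 1, Pparg, was lower in KO by this measure and 0 were higher, where 13.7% of the 10297 genes compared were lower and 13.6% were higher. Among the 7586 genes with at least 1 FPKM in both libraries, as all 10 were, 11.5% differed 3-fold in either direction, 5.66% being higher and 5.89% lower. In either direction 27.3% of all genes compared passed 3-fold, against 1 of the 10. At a 2-fold threshold Acadm was also lower in KO, where 22.5% of all genes compared were lower, 23.1% higher and 45.6% either. The share of the 10 genes past each threshold was thus near or under that of all genes, and nothing particular to them is read from it.

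Level by level, Pparg, Ppard, Rxra, Cpt1a and Hadhb had a mean of 20 to 50 FPKM, where the median size of a difference, ignoring its direction, was 0.58 and 11.7% of 1711 genes passed 3-fold. Pparg and Ppard lay above that median size, and Rxra, Hadhb and Cpt1a (0.24) lay below it. Acadm, Acadl, Acadvl and Hadha had a mean of 10 to 20 FPKM, where the median size was 0.76 and 20.6% of 1861 genes passed 3-fold. Acadm lay above this median size, and Acadl, Acadvl and Hadha (0.31) lay below it. Cpt2 had a mean of 2 to 5 FPKM, where the median size was 1.52 and 49.0% of 1947 genes passed 3-fold, and its difference was -0.31. The median difference of the 10 genes was -0.16, against 0.03 over all genes compared, and the SD over all genes was 1.55.

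**Figure D3:**
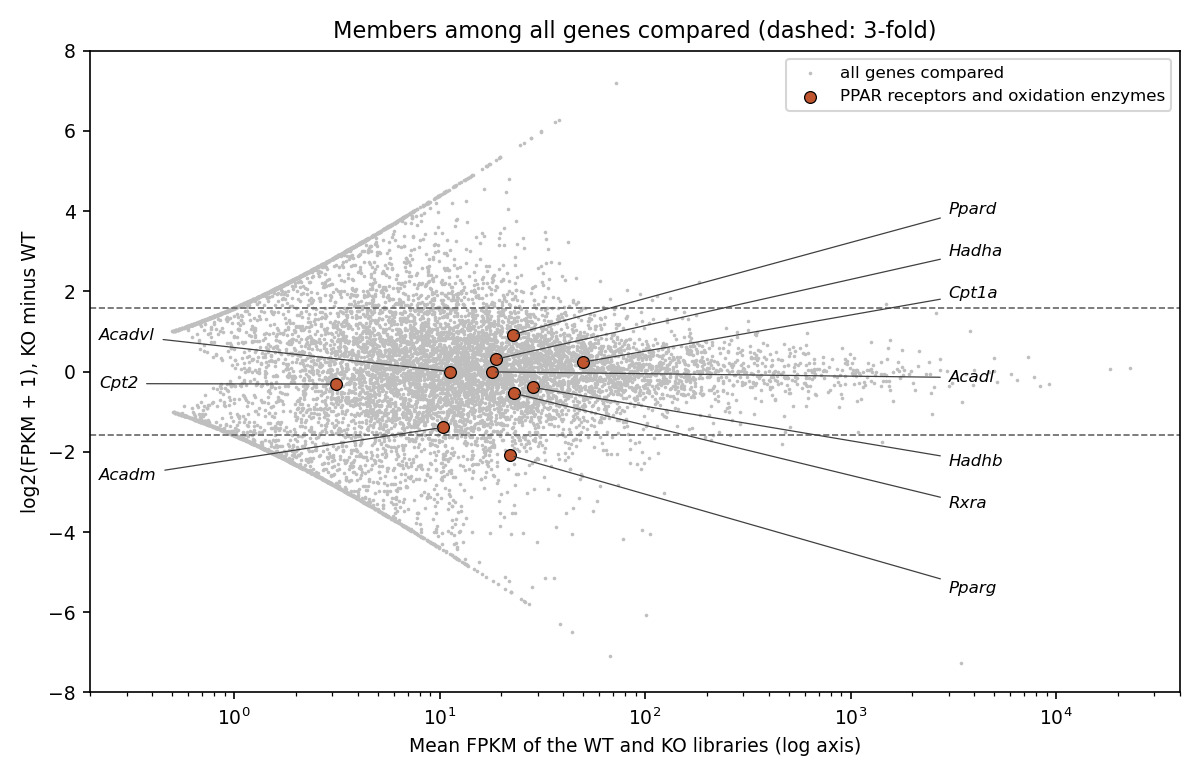
Difference of log2(FPKM + 1), KO minus WT, against the mean FPKM of both libraries (log axis) for the 10297 genes compared (grey), with the 10 genes marked and the 3-fold threshold dashed. Pparg (-2.09) is the only marked gene beyond the dashed lines, and Acadm (-1.39) is the next lowest.

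Genes around the receptors were examined next. Of 13 receptor partners and coregulators 12 had a value, and 3 were listed at 0 in both libraries: Ppara, the PPAR best known from liver, Rxrg, a further retinoid X receptor, and Ppargc1a, a coactivator of mitochondrial genes. The other 9 were above 1 FPKM in both libraries, and none of them differed 3-fold, beside 11.5% of all genes at that level. Among them the coactivator gene Ncoa3 was at 31.3 and 43.6 FPKM. The median difference of the 9 genes was 0.46.

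Of 16 genes chosen as known PPAR targets, 13 had at least 1 FPKM in a library. Of these 13, 6 had a higher and 7 a lower value in KO. By 3-fold, 5 were lower in KO and 1 was higher, beside 13.7% and 13.6% of all genes compared. The highest of them were within 3-fold. Plin2, which encodes a lipid droplet coat protein, measured 673 FPKM in WT against 707 in KO. Ucp2, an inner membrane carrier, was at 644 and 825 FPKM. Of the other genes within 3-fold, named after their values were seen, Cd36 was at 288 and 418 FPKM and Angptl4 at 46.5 and 61.6 FPKM. Fabp4 was at 90.1 and 91.4 FPKM, Pdk4 at 5.96 and 5.15 FPKM and Lpl at 457 and 219 FPKM. Hilpda, an inhibitor of triglyceride breakdown and also a known HIF-1 target, measured 149 FPKM in WT against 7.30 in KO. Fabp5, a fatty acid-binding protein, was at 130.4 and 39.04 FPKM, and Tgm2, a transglutaminase, was at 28.5 and 8.03 FPKM. Cidec, a lipid droplet fusion protein, was at 5.83 FPKM in WT and listed at 0 in KO. The remaining 2 genes past the threshold were under 5 FPKM and were named only after their values were seen: Me1 measured 4.29 FPKM in WT against 0.164 in KO, and Acot1 was listed at 0 in WT but at 2.76 FPKM in KO. The median difference of this list was -0.18, and -0.08 over the 10 genes with at least 1 FPKM in both libraries.

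A further list held genes that activate fatty acids or move them and carnitine across membranes. Of 11 such genes with a value, 10 had at least 1 FPKM in a library, 7 were higher and 3 lower in KO, and 3 of the 7 passed 3-fold, beside 13.6% of all genes compared that were higher by 3-fold. The acyl-CoA synthetase gene Acsl5 measured 6.51 FPKM in WT against 31.5 in KO. The fatty acid transporter gene Slc27a4 was at 2.09 and 12.9 FPKM. The carnitine transporter gene Slc22a5 was at 4.30 and 15.02 FPKM. The genes of the list highest in mean FPKM over both libraries were within 3-fold and lower in KO, with Slc27a1 at 57.7 and 50.9 FPKM and the carnitine acetyltransferase gene Crat at 34.1 and 19.3 FPKM. The median difference was 0.43.

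The other mitochondrial β-oxidation enzymes were split between directions. Of 14 genes compared, 2 were higher and 3 were lower by 3-fold and 9 were within it, beside 13.6% and 13.7% of all genes higher and lower, with a median difference of -0.10. This median was 0.10 over the genes with at least 1 FPKM in both libraries and 0.15 at a mean of at least 5 FPKM. Echs1, the short-chain enoyl-CoA hydratase, measured 6.30 FPKM in WT against 29.3 in KO, and Decr1, a dienoyl-CoA reductase, was at 0.397 and 5.03 FPKM. Eci1, an enoyl-CoA isomerase needed for unsaturated chains, was at 16.3 FPKM in WT and listed at 0 in KO. Acad11 and Acadsb, under 5 FPKM and named only after their values were seen, were at 3.92 and 2.13 FPKM in WT and listed at 0 in KO. The thiolase gene Acaa2 measured 30.2 FPKM in WT against 29.8 in KO. A value of 0 is not rare at these levels, as 5.65% of the 1769 genes at 10 to 20 FPKM in WT, 10.2% of the 1719 genes at 5 to 10 FPKM and 20.2% of the 1612 genes at 2 to 5 FPKM were listed at 0 in KO.

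Electrons from the acyl-CoA dehydrogenases pass to the electron transfer flavoprotein and on to its ubiquinone oxidoreductase. Etfb, its β subunit, measured 162 FPKM in WT against 29.6 in KO, the only 1 of the 3 genes of this list past 3-fold, beside 13.7% of all genes compared that were lower. Its partner subunit gene Etfa was at 13.99 and 10.99 FPKM, and Etfdh, the oxidoreductase, was at 12.8 and 24.04 FPKM. Etfb was 11.6 times as high as Etfa in WT and 2.69 times in KO.

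In peroxisomes, which shorten very long chains, 12 genes were compared, 4 of which were lower and 1 higher in KO by 3-fold, beside the same shares of all genes. Decr2 measured 23.5 FPKM in WT against 1.15 in KO, and the carnitine octanoyltransferase gene Crot was at 6.07 and 0.288 FPKM. Ehhadh, the peroxisomal bifunctional enzyme, was at 8.96 FPKM in WT and listed at 0 in KO. Abcd2, a peroxisomal transporter under 5 FPKM named only after its values were seen, was at 2.25 and 0.0234 FPKM. Acaa1a, the peroxisomal thiolase, was higher, at 18.3 FPKM in WT against 57.1 in KO. The median of -0.56 over 12 genes turned to 0.38 over the 8 genes with at least 1 FPKM in both libraries.

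**Figure D4:**
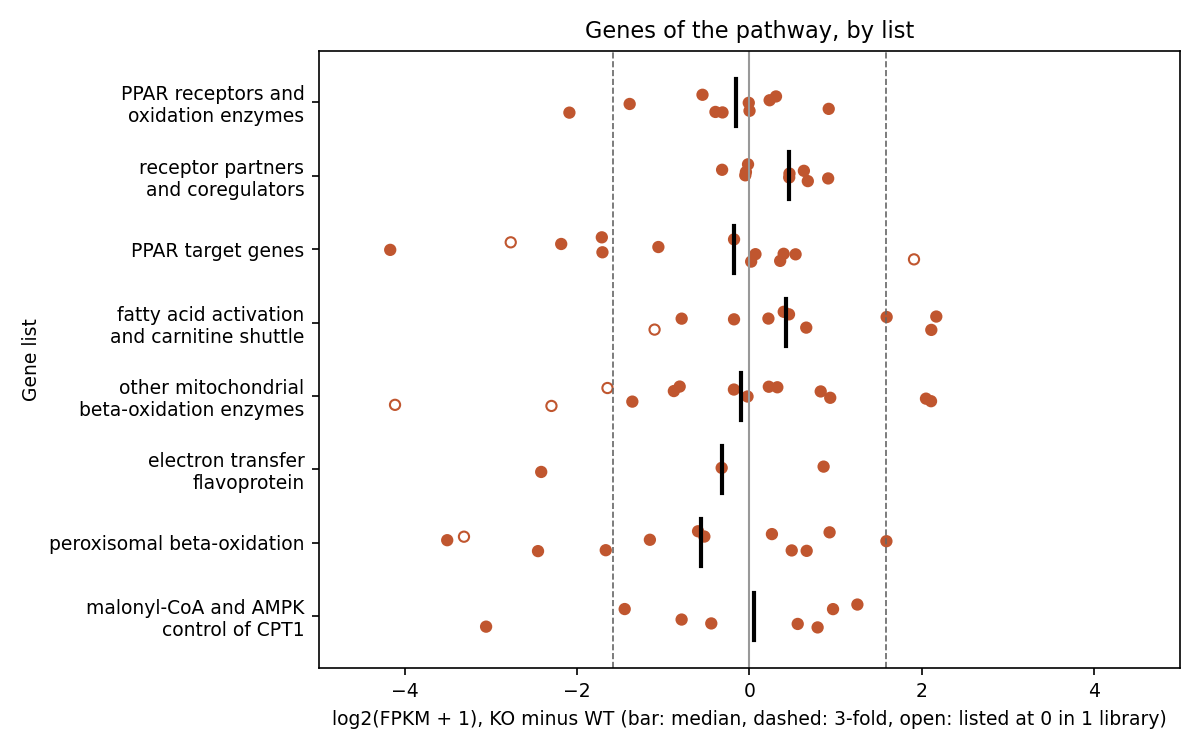
Difference of log2(FPKM + 1), KO minus WT, for each gene with at least 1 FPKM in a library, in the 10 genes (top row) and 7 further lists of the pathway. Black bars are medians, dashed lines the 3-fold threshold and open points genes listed at 0 in 1 library; medians range from -0.56 for peroxisomal β-oxidation to 0.46 for receptor partners and coregulators.

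Markers of other cells of the tissue were read beside these results, although a gate for cells positive for both F4/80 and CD11b removes cells that lack either protein. Of 9 neutrophil markers with a value, 6 were compared and all 6 were higher in KO, 3 of them by 3-fold beside 13.6% of all genes compared, and the list summed to 143 FPKM in WT against 499 in KO. S100a8 was at 73.3 and 182 FPKM and S100a9 at 63.4 and 301 FPKM, and Camp, Ltf and Elane were listed at 0 in both libraries. The granule protein genes Ngp and Mpo, past 3-fold with S100a9 and named after their values were seen, were listed at 0 in WT but at 2.61 and 2.29 FPKM in KO. Of 6 fibroblast markers 5 were compared and all 5 were higher in KO, 2 by 3-fold beside the same 13.6% of all genes, with a sum of 43.2 FPKM in WT against 84.3 in KO. Dcn was at 35.03 and 62.3 FPKM and Col3a1 at 5.18 and 7.46 FPKM, and the genes past 3-fold, named after their values were seen, were Pdgfra, at 0.0246 and 4.98 FPKM, and Col1a2, at 0.0948 and 4.75 FPKM.

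Endothelial cells, which also use PPARγ, gave 6 markers summing to 14.6 FPKM in WT against 16.1 in KO. Pecam1 was at 6.67 and 8.70 FPKM, Cdh5 at 5.53 and 5.98 FPKM, and Cldn5 was listed at 0 in both. Of 5 mesothelial markers Msln, Wt1, Krt19 and Lrrn4 were listed at 0 in both libraries, and Upk3b was listed at 0 in WT but at 7.84 FPKM in KO. Of 5 T cell markers with a value Cd3e, Cd3d, Cd3g and Cd8a were listed at 0 in both, and Cd4 was at 5.35 and 2.07 FPKM. The 5 B cell markers summed to 2.75 and 6.46 FPKM, with Cd79a at 2.50 and 0.222 FPKM, Cd79b listed at 0 in WT but at 5.52 FPKM in KO, and Pax5 listed at 0 in both. The part of these cells in the differences of Pparg, Ppard and Acadm was not tested.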

How the data were processed

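FPKM values of 1 WT and 1 KO library, deposited by the authors in 1 table, were used as given. The submitters' processing notes name CASAVA 1.8.2, TopHat2 2.0.9, Cufflinks 2.2.1 and mm9. The annotation and filters are not given in the sources used here. Poly(A) RNA was fragmented, amplified for 18 cycles and gel-selected at 200 to 500 bp. KO values are those of the mutant column.

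Of 20749 rows, 401 full repeats were dropped and 18 rows with other values for an identifier were summed. Symbols, for 98.5% of 20330 identifiers, coordinates and transcript lengths came from GENCODE M21 (GRCm38), and promoter sequences from RefSeq (GRCm38.p6). These builds differ from mm9, so they describe the genes only.

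Differences were log2(FPKM + 1), KO minus WT, for genes that reached 1 FPKM in either library. The pseudocount of 1 understates the difference of low genes. The smallest recurring FPKM x kb in genes with a single coding transcript, 0.172 in WT (36 genes) and 0.135 in KO (38 genes), was taken as 1 fragment, and fragments were estimated with the longest coding transcript. Counting intervals of 95% were Clopper-Pearson for ratios and exact Poisson for levels (scipy 1.17.1).

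Members and lists were chosen with earlier results of these data known. Named were the 10 genes, the 2 highest of each list, pathway genes past 3-fold with at least 5 FPKM in a library, and markers at 0 in both. Some genes under this rule are not reported here. Procedures were tested on simulated data that held counting error only. The simulation lacked differences between animals or library preparations, so it does not show how often such differences pass 3-fold. The alternatives were pseudocounts of 0.1 and 0.01, 3 scalings, the largest of repeated rows, 3 filters and a 2-fold threshold.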

Additional observations from a re-analysis of the deposited data

How the results depend on the processing

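Of 181 recomputed values, 171 stayed within an allowance, 10 moved by more and 50 were identical to the reported ones. The allowance was the counting interval for single genes and 1.5-fold for counts and medians, as no replicate spread exists. It is wide for medians, as that of receptor partners and coregulators went from 0.46 to 0 without a filter and still counted as within it. The scalings multiplied KO by factors of only 0.981 to 1.031, and keeping the largest of repeated rows left the tallied results unchanged. Much of this tally thus follows from the settings, and firmness of the results is not read from it. Pparg stayed between -2.22 and -2.05, Ppard between 0.89 and 0.97 and Acadm between -1.55 and -1.35 over the pseudocounts and scalings. The number of the 10 genes lower in KO became 2 at a 2-fold threshold. Over all genes, the numbers higher and lower were 429 and 447 with at least 1 FPKM in both libraries, 598 and 646 at a mean of at least 5 FPKM, since fewer genes were left, and 2380 and 2314 at 2-fold. The peroxisomal median was 0.38 under both stricter filters, and the median of the malonyl-CoA and AMPK list was -0.61 at a mean of at least 5 FPKM, in each case over fewer genes. The median of the other mitochondrial enzymes also changed sign, from -0.10 to 0.10 and 0.15 under these filters, within the allowance. No paired analysis was possible because there is only 1 library of each genotype. Depth limited Cpt2 most, whose counting interval was the widest of the 10, and no interval covers differences between animals.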

Other observations

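CPT1 is inhibited by malonyl-CoA, which acetyl-CoA carboxylase makes and AMP-activated protein kinase (AMPK) restrains, and 11 genes of this control had a value. Of these 8 were compared, 4 were higher and 4 lower in KO, and 1 of them, Prkag1, passed 3-fold on the log2(FPKM + 1) scale, lower in KO, beside 13.7% of all genes compared. Acaca, an acetyl-CoA carboxylase gene singled out after its values were seen, was at 1.04 and 3.88 FPKM, within 3-fold on that scale. Prkag1, a regulatory γ subunit of AMPK, measured 36.3 FPKM in WT against 3.48 in KO. The regulatory β subunit gene Prkab1 was at 15.9 and 28.2 FPKM, and Stk11, which encodes the AMPK-activating kinase LKB1, was at 59.1 and 43.2 FPKM. Prkaa1, a catalytic α subunit of AMPK named after its values were seen, was at 21.3 and 7.15 FPKM. The median difference of the list was 0.06, and -0.61 over its genes with a mean of at least 5 FPKM.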
